A study of Mus musculus with 35 samples.

Results

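The mitosis and spindle genes are 45 genes whose products drive a cell into and through division, named by symbol and read from 1 probe set each. All 45 were found among the 17097 genes that had a probe set annotated to a single gene, and where a gene had several such probe sets the brightest stood for it. They were followed in whole lung of adult male wild-type C57Bl/6 mice bought from Taconic. Each mouse breathed styrene or air for 6 h on a single occasion and was killed the next morning, and total RNA was hybridised to an Affymetrix mouse array. Styrene is a volatile aromatic hydrocarbon used to make plastics and resins. The air controls (0 ppm) and the groups given 1, 5, 10, 20, 40 and 120 ppm held 5 arrays each, 35 in all, and the labels name these as biological replicates. Array titles carry a serial number, and the number 15 stands on both replicate 5 of 1 ppm and replicate 1 of 5 ppm, so whether each of these had its own animal is not settled, and p-values measure the spread between arrays as labelled. Because whole lung was sampled, a change in the number of dividing cells and a change in RNA per cell cannot be told apart in any result below.

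Division is run by cyclin-dependent kinase 1, which cyclins A and B switch on, and by the Aurora and Polo-like kinases that build the spindle. Kinetochore proteins tie chromosomes to spindle microtubules, kinesin motors move them, and a checkpoint holds the cell back until every chromosome is attached. The anaphase-promoting complex, with its activator Cdc20 and the ubiquitin-conjugating enzyme Ube2c, then destroys the cyclins, and cytokinesis proteins cut the cell apart. Most of these genes are silent in resting cells and are switched on together late in the cell cycle by the B-MYB, MuvB and FOXM1 factors. In resting cells the DREAM complex holds the same promoters off through a motif called the cell cycle homology region. Few cells of the healthy adult lung divide at any time, and the group is widely read as a mark of proliferation.

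The signals are log2 values that the depositors had already normalised, so a difference of 1 is a doubling. The 23 nonspecific-hybridisation controls on each array give a level that is reached without a matching transcript. The brightest of them was the probe set with 25 G or C bases on all 35 arrays, which makes it a strict bar, and the next was the one with 24. Of the members, 20 lay below the brightest control on every array, 25 exceeded it on at least 1 array and 15 on at least 5, while 10 exceeded the second-brightest on all 35. The brightest control had a group mean of 6.08 at 0 ppm and 6.10 at 20 ppm, but of 7.16 at 120 ppm, where its values ran from 6.71 to 7.36. The poly-A spike-in controls also averaged 8.36 there against 6.67 at 0 ppm. On 1 array, replicate 4 of 5 ppm, the brightest control read only 4.57. The tissue label held up against its markers: the alveolar type 2 genes averaged 12.5 to 12.9 and the club cell genes 12.7 to 13.6 on every array. Hepatocyte markers averaged above 6 on 5 arrays (replicates 3 and 4 of 0 ppm, replicates 1 and 2 of 1 ppm and replicate 2 of 20 ppm), and counts without those arrays are given beside the results. Replicate 4 of 5 ppm read 5.81, where the other arrays of that dose read 3.72 to 4.09, and it was kept in those counts.

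Promoter windows of 300 bases, from 250 before to 50 after the annotated start (RefSeq, GRCm38.p6), were matched by symbol for 38 of the 45 members, which gave 43 windows. Pbk, Aurkb, Ccna2, Cdc25c, Kif20a, Tpx2 and Dlgap5 had no entry. The windows below belong to the first-ranked member of each functional group that had one, since these are the genes with the clearest dose pattern. Each is written 5′ to 3′ along the gene's own strand, and capitals mark the CCAAT box (CCAAT, or ATTGG on the other strand), the cell cycle homology region (TTTGAA or TTCGAA, or TTCAAA on the other strand) and an E2F site (TTTCCCGC, TTTCGCGC, TTTGCCGC or TTTGGCGC on either strand). They lie at chr10:69352863-69353162 (Cdk1, minus strand), chr6:124829926-124830225 (Cdca3, plus), chr7:127042371-127042670 (Kif22, minus), chr7:80294201-80294500 (Prc1, plus), chr13:104228361-104228660 (Cenpk, plus), chr4:124936868-124937167 (Cdca8, minus), chr11:99024140-99024439 (Top2a, minus) and chr3:27153829-27154128 (Ect2, minus). In Cdca8 the homology region and the last CCAAT box share a base.
Cdk1: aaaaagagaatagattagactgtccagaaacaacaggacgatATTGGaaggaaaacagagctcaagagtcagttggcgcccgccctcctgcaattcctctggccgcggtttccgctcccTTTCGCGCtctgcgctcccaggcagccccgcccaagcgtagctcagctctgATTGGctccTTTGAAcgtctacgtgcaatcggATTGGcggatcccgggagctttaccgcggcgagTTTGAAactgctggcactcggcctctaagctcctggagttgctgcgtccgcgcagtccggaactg
Cdca3: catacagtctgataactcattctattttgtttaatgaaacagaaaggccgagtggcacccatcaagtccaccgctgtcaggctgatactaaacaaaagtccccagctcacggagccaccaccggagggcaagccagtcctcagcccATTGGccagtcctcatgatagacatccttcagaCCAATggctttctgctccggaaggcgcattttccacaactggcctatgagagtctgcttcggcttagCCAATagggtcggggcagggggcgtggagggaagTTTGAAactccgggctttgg
Kif22: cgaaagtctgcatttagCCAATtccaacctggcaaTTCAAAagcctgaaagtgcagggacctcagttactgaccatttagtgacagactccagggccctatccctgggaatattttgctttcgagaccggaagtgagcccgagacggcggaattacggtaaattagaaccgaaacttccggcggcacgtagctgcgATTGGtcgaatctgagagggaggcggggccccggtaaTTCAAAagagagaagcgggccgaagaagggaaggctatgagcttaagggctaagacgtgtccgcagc
Prc1: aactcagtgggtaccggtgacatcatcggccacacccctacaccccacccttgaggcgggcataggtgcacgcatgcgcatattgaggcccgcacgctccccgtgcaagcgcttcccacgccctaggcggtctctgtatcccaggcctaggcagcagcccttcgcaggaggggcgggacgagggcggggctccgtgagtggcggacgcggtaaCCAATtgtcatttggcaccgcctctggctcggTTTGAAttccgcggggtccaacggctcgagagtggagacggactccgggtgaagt
Cenpk: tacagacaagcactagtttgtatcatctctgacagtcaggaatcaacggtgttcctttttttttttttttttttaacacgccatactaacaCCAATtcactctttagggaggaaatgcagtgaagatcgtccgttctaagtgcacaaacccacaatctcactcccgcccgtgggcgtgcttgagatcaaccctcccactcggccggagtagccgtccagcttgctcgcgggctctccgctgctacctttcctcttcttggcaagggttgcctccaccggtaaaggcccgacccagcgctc
Cdca8: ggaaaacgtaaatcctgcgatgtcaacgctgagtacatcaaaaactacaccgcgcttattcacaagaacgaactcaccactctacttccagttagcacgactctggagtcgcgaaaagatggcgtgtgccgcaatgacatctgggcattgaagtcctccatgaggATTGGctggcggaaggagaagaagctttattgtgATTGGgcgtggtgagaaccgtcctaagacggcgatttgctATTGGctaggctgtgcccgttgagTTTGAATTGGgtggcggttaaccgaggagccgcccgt
Top2a: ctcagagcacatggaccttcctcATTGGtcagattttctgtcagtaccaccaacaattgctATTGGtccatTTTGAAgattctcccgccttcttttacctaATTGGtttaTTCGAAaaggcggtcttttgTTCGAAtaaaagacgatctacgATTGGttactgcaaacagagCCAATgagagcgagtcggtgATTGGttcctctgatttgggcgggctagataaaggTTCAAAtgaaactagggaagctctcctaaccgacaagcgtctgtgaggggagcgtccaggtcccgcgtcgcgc
Ect2: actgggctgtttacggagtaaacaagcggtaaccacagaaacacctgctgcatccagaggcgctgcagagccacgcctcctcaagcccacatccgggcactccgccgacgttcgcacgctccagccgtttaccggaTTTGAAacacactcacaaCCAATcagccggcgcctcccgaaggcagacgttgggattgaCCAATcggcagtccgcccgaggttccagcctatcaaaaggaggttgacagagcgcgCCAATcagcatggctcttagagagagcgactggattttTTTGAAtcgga

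The cell cycle homology region was present in 34 of the 43 member windows (79.1%), against 19.2% of all 32851 windows and 5 of 30 windows (16.7%) of DNA replication genes. Of the 47 matches in member windows, 33 (70.2%) began within 50 bases of the start, against 25.2% of the matches in all windows, and 32 windows (74.4%) held such a match, against 5.31% of all windows. In the printed set it began 15 bases before the start in Cdk1, 5 before in Prc1 and 17 before in Kif22, and 13 bases after it in Cdca8 and 30 after it in Cdca3. The printed Cenpk window held a CCAAT box but no homology region.

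CCAAT boxes were common too, in 76.7% of member windows against 37.4% of all windows, and 48.8% held at least 2 against 11.7%. Top2a had 6. A pair of CCAAT boxes starting 30 to 36 bases apart, as in Cdk1, Cdca3 and Cdca8, occurred in 9 member windows (20.9%) and in 1.87% of all windows, a spacing and a start distance that were chosen after these windows had been seen. The E2F site was in 3 member windows (6.98%) against 11 of 30 (36.7%) for DNA replication genes and 2.26% of all windows. Within the group, 20 of 26 windows of members that rose at 20 ppm held the homology region (76.9%), and 14 of 17 windows of members that did not pass the test held it (82.4%). A match is a run of letters and not a bound site.

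**Figure D1:**
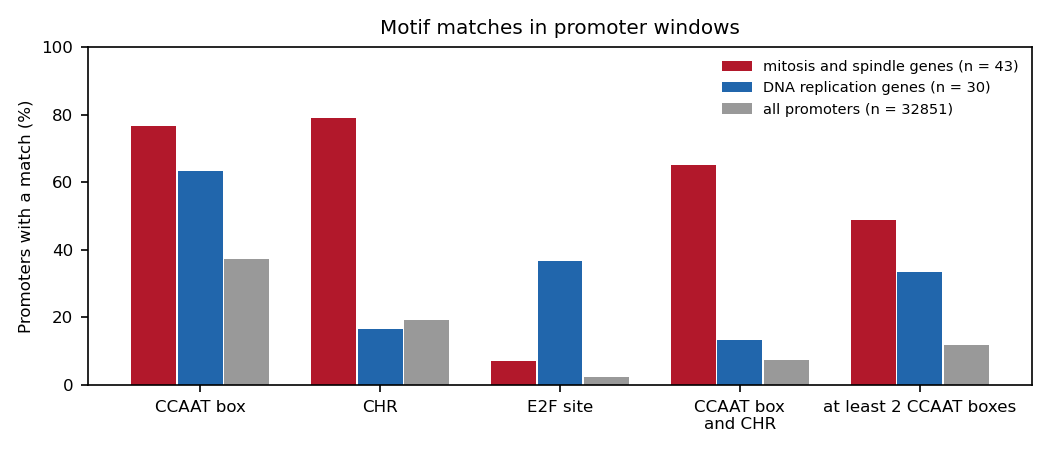
Share of promoter windows (y axis, percent) that hold each motif (x axis; CHR is the cell cycle homology region), for the 43 windows of the mitosis and spindle genes, 30 windows of DNA replication genes and all 32851 windows. The homology region stands at 79.1% in the members and 16.7% in the DNA replication genes, while the E2F site stands at 6.98% and 36.7%.

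From 5 to 40 ppm, part of the mitosis and spindle genes were higher in styrene-exposed lung than in air controls, and the number that passed the test was largest at 20 ppm. In limma's fit with Benjamini-Hochberg adjustment over all 17097 genes, 5 of 45 rose at 5 ppm, where 1.13% of all genes rose and 0.0234% fell. At 10 ppm 22 rose, against a background of 5.17% higher and 6.62% lower. At 20 ppm 25 rose, against 6.45% higher and 6.74% lower, and at 40 ppm 22 rose, against 7.69% higher and 5.04% lower. With the arrays centred on their medians the all-gene calls at 40 ppm were 1500 higher and 586 lower, against 1315 and 862 here. None of the 45 passed the test in the lower direction at these doses, and the lowest differences from 0 ppm were -0.06, -0.28, -0.11 and -0.16 at 5, 10, 20 and 40 ppm.

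The median difference over the 45 members was 0.22, 0.53, 0.57 and 0.37 at 5, 10, 20 and 40 ppm, whereas the median over all genes stayed between -0.02 and 0.01. At 1 ppm the member median was -0.07, and no member passed the test. There limma also called 0% of all genes in either direction, although 1 member and 1190 of all genes had an unadjusted p below 0.05. The arrays show the same course. The mean of the 45 signals on an array ran from 4.35 to 4.67 at 0 ppm, 4.28 to 4.45 at 1 ppm, 4.65 to 4.97 at 5 ppm, 4.84 to 5.05 at 10 ppm, 4.88 to 5.40 at 20 ppm and 4.93 to 5.08 at 40 ppm. Every array from 10 to 40 ppm thus lay above every control array, and at 5 ppm replicate 3 lay within the control range.

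**Figure D2:**
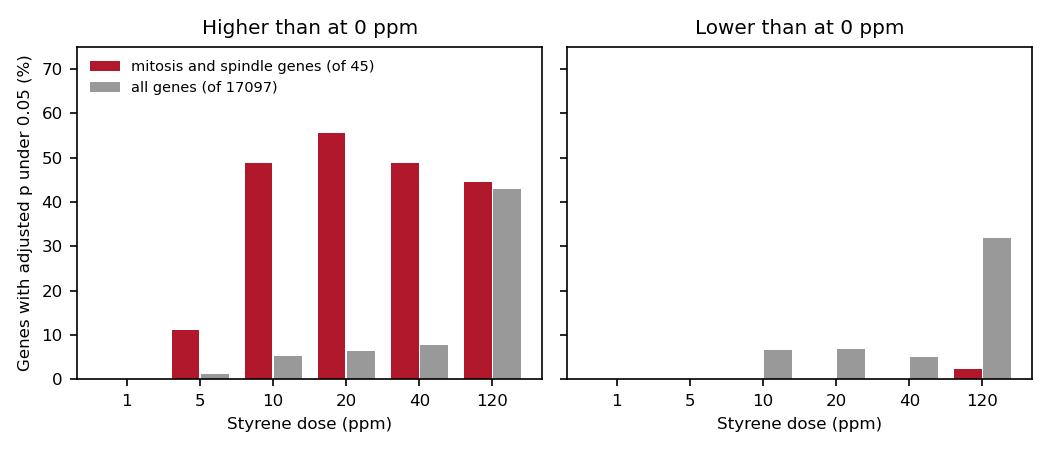
Percent of the 45 mitosis and spindle genes (red) and of all 17097 genes (grey) with an adjusted p under 0.05 against 0 ppm (y axis) at each styrene dose (x axis), higher in the left panel and lower in the right. The members exceed the background from 5 to 40 ppm in the higher direction, while at 120 ppm 42.9% of all genes are higher as well.

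Not all of those calls rested equally on each animal. Leaving out each array in turn kept 3 of the 5 calls at 5 ppm, 16 of 22 at 10 ppm, 22 of 25 at 20 ppm and 17 of 22 at 40 ppm in every fit. Without the 5 arrays whose hepatocyte markers averaged above 6, 3, 14, 21 and 15 members rose at 5, 10, 20 and 40 ppm.

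**Figure D3:**
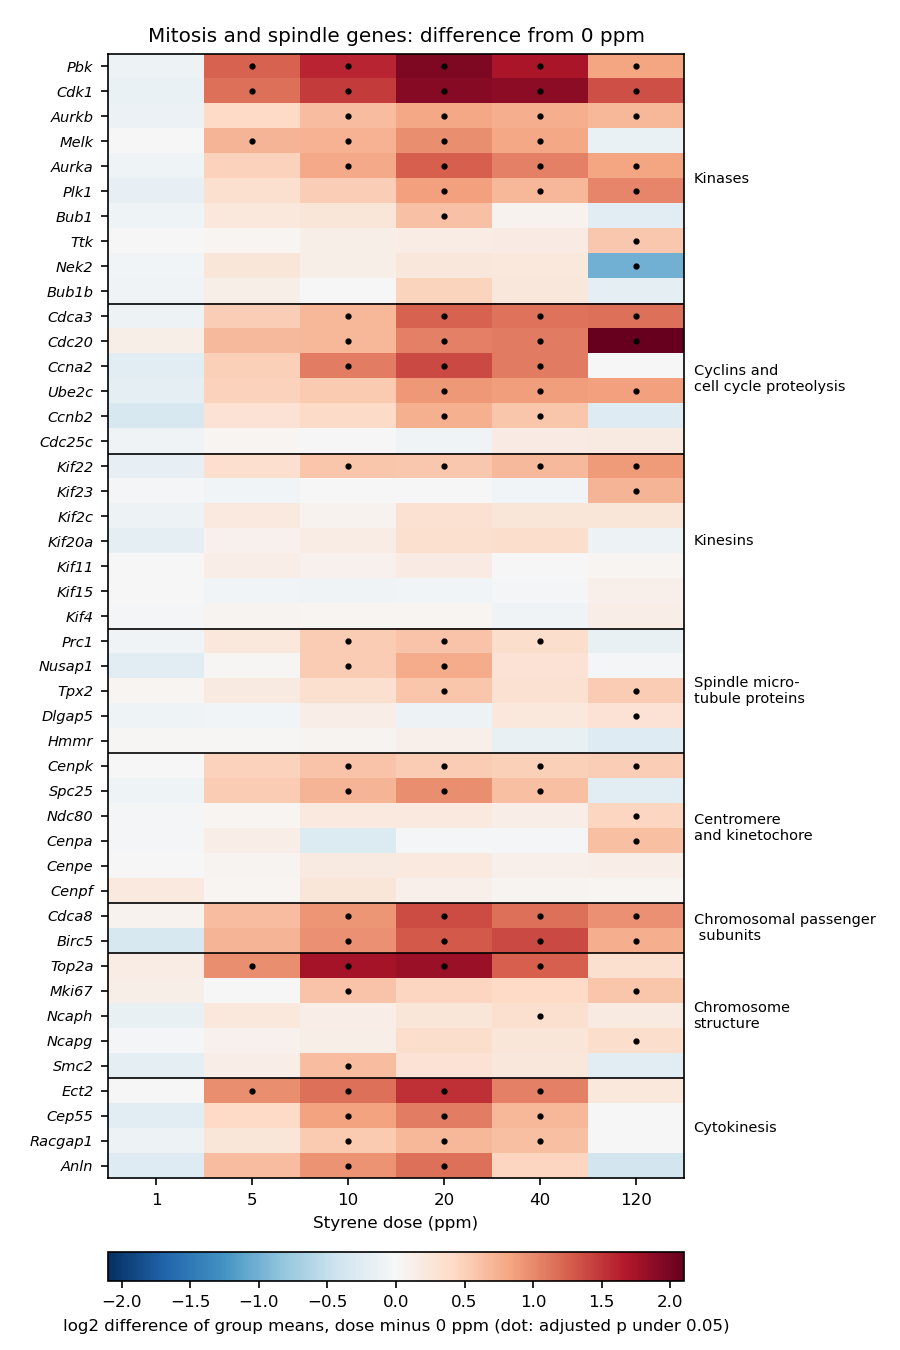
Difference of the group mean from 0 ppm (colour, log2) for each of the 45 genes (rows, grouped by function) at each styrene dose (columns), with a dot where limma's adjusted p was under 0.05. Dots fill the columns from 10 to 40 ppm for the kinases Pbk, Cdk1, Aurkb, Melk and Aurka, both passenger subunits and most cytokinesis genes, and leave 10 genes without a dot.

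Kinases gave 3 of the 5 rises at 5 ppm, and of the 10 kinases 5 rose at 10 ppm, 7 at 20 ppm and 6 at 40 ppm. Pbk encodes PBK, a mitotic kinase also known as TOPK. Its signals were 5.19, 4.85, 4.89, 5.39 and 5.14 on the 5 control arrays and 6.15, 6.05, 6.19, 6.55 and 6.73 at 5 ppm. They reached 6.92, 6.40, 6.90, 6.76 and 6.45 at 10 ppm, 6.70, 6.89, 6.81, 7.24 and 7.61 at 20 ppm, and 7.11, 7.04, 6.91, 6.41 and 6.58 at 40 ppm. The ranges of 0 ppm and of each dose from 5 to 40 ppm did not overlap. Since every control array lay below its brightest nonspecific control, the rise is given as a bound: at least 1.19-fold at 5 ppm (log2 difference 1.24, SE 0.192, adjusted p = 7.1e-05 in limma's fit) and at least 1.96-fold at 20 ppm (log2 difference 1.96, adjusted p = 4.3e-09).

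Cdk1, the kinase that triggers entry into mitosis, read 5.97, 4.97, 5.20, 5.29 and 5.03 on the control arrays and 4.67, 5.11, 5.46, 5.40 and 5.16 at 1 ppm. At 5 ppm it read 6.37, 6.42, 5.95, 6.79 and 6.73, and at 20 ppm 6.96, 7.20, 6.95, 7.44 and 7.47. The control replicate 1 stood well above the other 4 and met the lowest 5 ppm array, so these ranges touched, while at 10, 20 and 40 ppm they were apart. The rise was at least 1.30-fold at 5 ppm (log2 difference 1.16, SE 0.224, adjusted p = 0.0016 in limma's fit), at least 1.60-fold at 10 ppm and at least 2.19-fold at 20 ppm (log2 difference 1.91, adjusted p = 1.6e-07). Its promoter, printed above, has a homology region close to the start and is among the 3 member windows with an E2F site.

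**Figure D4:**
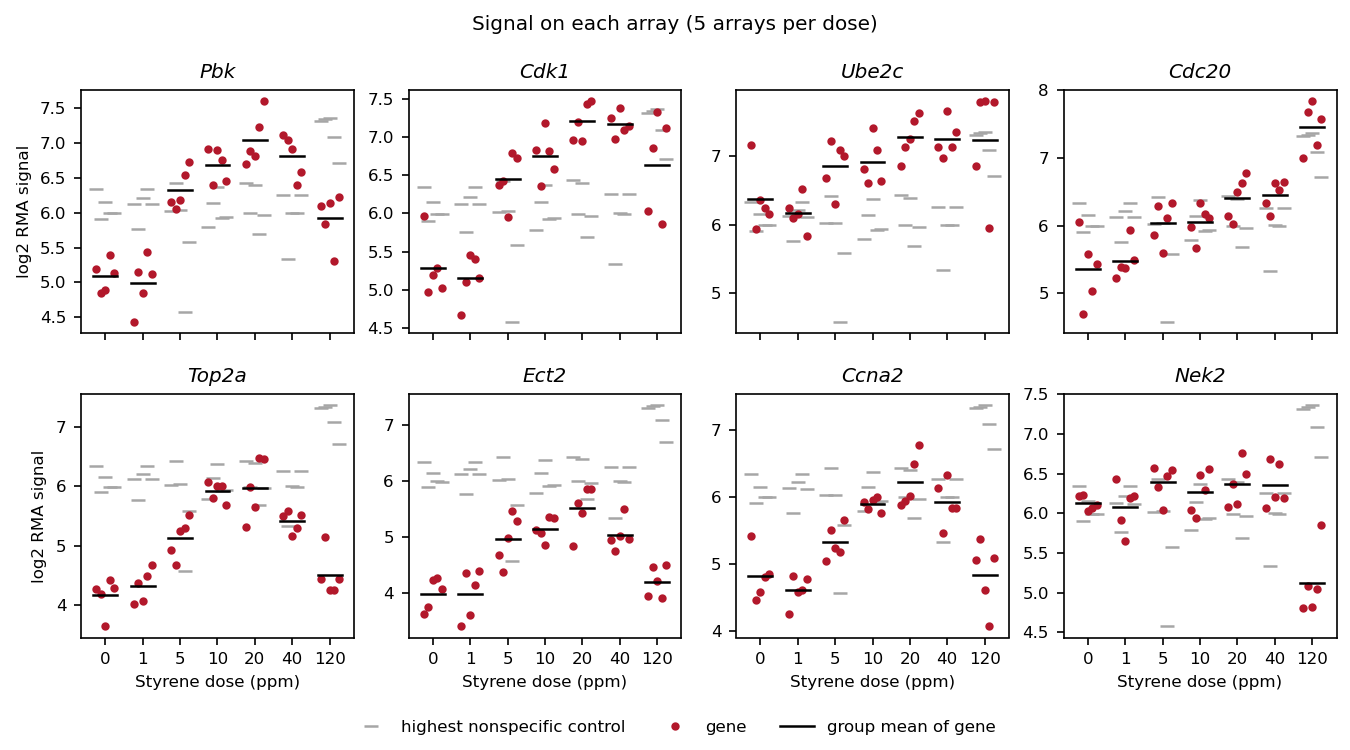
log2 signal (y axis) of 8 members on each of the 5 arrays per styrene dose (x axis; red points, in replicate order), with the group mean (black line) and the brightest nonspecific control of the same array (grey dash). Pbk and Cdk1 pass from below their controls at 0 ppm to above them on all arrays at 10, 20 and 40 ppm, and at 120 ppm the controls themselves are higher and Nek2 is lower.

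The Aurora kinases rose from 10 ppm. Aurka, which matures the spindle poles, read 5.26, 4.74, 5.05, 4.99 and 4.99 at 0 ppm and 5.91, 6.04, 6.18, 6.55 and 6.63 at 20 ppm, with no overlap, a rise of at least 1.14-fold (log2 difference 1.25, adjusted p = 8.1e-05 in limma's fit). Aurkb, the catalytic subunit of the chromosomal passenger complex, exceeded the brightest control only on replicate 4 of 5 ppm, and its measured difference was 0.64 at 10 ppm, 0.81 at 20 ppm and 0.77 at 40 ppm without overlap at any of them. Melk, a kinase enriched in dividing progenitors, rose at 5 ppm (0.71, adjusted p = 0.0095 in limma's fit), a call that was lost without control replicate 3 or without replicate 4 of 5 ppm. Plk1, the Polo-like kinase that builds the bipolar spindle, rose at 20 ppm (0.86) and 40 ppm (0.70), and the checkpoint kinase Bub1 only passed the test at 20 ppm (0.62), a call that was lost without replicate 5 of 20 ppm (adjusted p = 0.068 in limma's fit). The checkpoint kinases Ttk and Bub1b and the centrosome kinase Nek2 passed the test at none of these doses. A second Bub1b probe set of nearly equal mean signal (5.36) was higher at 40 ppm by 0.50 (adjusted p = 0.0068 in limma's fit over all probe sets).

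Of the cyclins and the proteins that destroy them, 0 of 6 passed limma's test at 5 ppm, where 3 had an unadjusted p below 0.05 and Cdc20 the lowest adjusted p (0.12), 3 rose at 10 ppm and 5 at both 20 and 40 ppm. Ccna2 encodes cyclin A2, which works in both DNA synthesis and mitosis. It read 5.42, 4.46, 4.58, 4.81 and 4.86 on control arrays, 5.92, 5.83, 5.95, 6.00 and 5.77 at 10 ppm and 5.88, 5.94, 6.02, 6.49 and 6.77 at 20 ppm. The control and dosed ranges were apart, and the rise at 20 ppm was at least 1.10-fold (log2 difference 1.39, adjusted p = 5.7e-06 in limma's fit). A second probe set for Ccna2, not used for the counts, gave 1.50 at that dose. Ccnb2, cyclin B2, rose at 20 ppm (0.75) and 40 ppm (0.59), with overlap at both, and the 40 ppm call was lost without control replicate 3.

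Cdc20, the activator that turns the anaphase-promoting complex on cyclins and securin, read 6.05, 4.70, 5.58, 5.04 and 5.43 at 0 ppm and 6.15, 6.03, 6.49, 6.62 and 6.77 at 20 ppm. Control replicate 1 reached into the dosed range, and the rise was at least 1.26-fold (log2 difference 1.06, adjusted p = 0.00028 in limma's fit). Ube2c, the ubiquitin-conjugating enzyme of the same complex, exceeded the brightest control on 31 arrays, more than any other member. It read 7.17, 5.93, 6.36, 6.25 and 6.16 at 0 ppm and 6.86, 7.15, 7.26, 7.51 and 7.64 at 20 ppm, a 1.88-fold rise (log2 difference 0.91, SE 0.265, adjusted p = 0.018 in limma's fit). Here too control replicate 1 lay among the dosed arrays, and the call was lost without control replicate 2 or without replicate 5 of 20 ppm (highest adjusted p = 0.062).

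Cdca3, a trigger of mitotic entry that acts through ubiquitin ligases, rose at 10 ppm (0.70), 20 ppm (1.25) and 40 ppm (1.14), with the 10 ppm call lost without control replicate 2 or 5 or replicate 1, 3 or 4 of 10 ppm. At 20 ppm its arrays read 6.01, 6.15, 5.90, 6.71 and 6.65 against 5.66, 4.45, 5.06, 5.05 and 4.97 in controls, without overlap and at least 1.16-fold apart. The phosphatase gene Cdc25c, which activates cyclin-dependent kinase 1, lay below the second-brightest control on all 35 arrays and its differences from 0 ppm ran from -0.07 to 0.18.

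Among the motors and spindle proteins few passed the test. Of 7 kinesins, 1 rose at 10, 20 and 40 ppm, and it was Kif22 each time. Kif22, the chromokinesin that pushes chromosome arms toward the spindle equator, read 4.63, 4.21, 4.29, 4.32 and 4.18 at 0 ppm and 5.09, 4.79, 4.77, 5.03 and 4.87 at 10 ppm. Those ranges did not overlap, and the measured differences were 0.58 at 10 ppm, 0.56 at 20 ppm and 0.68 at 40 ppm (adjusted p = 0.0040, 0.0049 and 0.00084 in limma's fit), all below the brightest control. Kif11, Kif15, Kif4, Kif2c, Kif20a and Kif23, motors of spindle assembly, chromosome alignment and the central spindle, were not called from 5 to 40 ppm. None of these 6 exceeded the brightest control on any array, and over the doses from 5 to 40 ppm their differences ran from -0.07 to 0.37.

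Of 5 spindle microtubule proteins, 2 rose at 10 ppm, 3 at 20 ppm and 1 at 40 ppm. Prc1, which bundles the antiparallel microtubules of the central spindle, read 4.81, 4.55, 4.50, 4.58 and 4.79 at 0 ppm and 5.19, 5.01, 5.12, 5.33 and 5.24 at 10 ppm, without overlap. It was the member of this subgroup called at 10 ppm (0.53), 20 ppm (0.60) and 40 ppm (0.36), but the 40 ppm call was lost without control replicate 2, 3 or 4 or replicate 3 or 5 of 40 ppm (highest adjusted p = 0.088 in limma's fit). Nusap1, a microtubule stabiliser, rose at 10 ppm (0.53) and 20 ppm (0.78), with overlap at both, and the 10 ppm call was lost without control replicate 1, 2 or 3 or replicate 2, 4 or 5 of 10 ppm. Tpx2, which activates Aurora A on the spindle, rose at 20 ppm (0.57), a call that was lost without control replicate 1, 2 or 3 or replicate 2, 4 or 5 of 20 ppm (highest adjusted p = 0.11 in limma's fit). Hmmr and Dlgap5, both spindle-assembly proteins, did not pass the test from 5 to 40 ppm.

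The centromere and kinetochore group was divided. Cenpk and Spc25, which belong to the inner and outer kinetochore, rose at 10, 20 and 40 ppm. Cenpa, the histone variant that marks the centromere, the outer-kinetochore protein Ndc80, and Cenpe and Cenpf did not. Cenpk read 3.42, 3.46, 3.78, 3.85 and 3.72 at 0 ppm and 4.35, 4.29, 4.14, 4.21 and 4.20 at 10 ppm, without overlap (0.59, SE 0.131, adjusted p = 0.0017 in limma's fit). These signals straddle the second-brightest control, and the gene exceeded that control on 12 of 35 arrays. Spc25 differed by 0.71 at 10 ppm, 0.98 at 20 ppm and 0.63 at 40 ppm without overlap, the 40 ppm call being lost without control replicate 2 or replicate 3 of 40 ppm. Cenpa read 6.68 on control replicate 1 and between 5.33 and 5.56 on the other 4, and its difference at 20 ppm was -0.04.

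Both chromosomal passenger subunits, which place Aurora B on centromeres and the midbody, rose at 10, 20 and 40 ppm. Cdca8, the borealin subunit, read 4.57, 3.85, 4.33, 4.00 and 3.96 on control arrays and 5.16, 5.13, 5.60, 5.86 and 5.82 at 20 ppm. The lowest dosed array lay above the highest control, and the measured difference was 1.37 (SE 0.193, adjusted p = 4.2e-06 in limma's fit), with 1 of the 5 dosed arrays above its brightest nonspecific control. Birc5, the survivin subunit, read 5.67, 4.43, 4.46, 5.01 and 5.05 on control arrays and 6.33, 6.14, 6.61, 6.27 and 6.18 at 40 ppm. It was at least 1.17-fold higher there (log2 difference 1.38, adjusted p = 5.3e-06 in limma's fit), with no overlap. Aurkb, their catalytic partner, rose at the same 3 doses as given above.

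Of the chromosome structure genes, Top2a carried the largest change. Top2a, the topoisomerase that untangles sister chromatids, read 4.28, 4.18, 3.64, 4.43 and 4.29 at 0 ppm and 4.93, 4.67, 5.25, 5.30 and 5.52 at 5 ppm. It then read 6.08, 5.81, 6.01, 6.00 and 5.68 at 10 ppm, 5.32, 5.98, 5.65, 6.48 and 6.46 at 20 ppm, and 5.51, 5.59, 5.17, 5.30 and 5.52 at 40 ppm. No dosed range from 5 to 40 ppm overlapped the control range, and all 5 arrays at 40 ppm lay below all 5 at 10 ppm. The measured differences were 0.97, 1.75, 1.81 and 1.25 (SE 0.194 each), with adjusted p = 0.0029, 5.4e-08, 3.2e-08 and 2.1e-05 in limma's fit. No fold is given because the bound was under 1 at each of these doses. A dimmer Top2a probe set gave 0.49 at 10 ppm and 0.52 at 20 ppm, and the dimmest 0.20 and 0.07.

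Mki67, the Ki-67 antigen used to stain dividing cells, was dim. It read 3.93, 3.28, 3.61, 3.76 and 3.74 at 0 ppm, 3.59, 3.53, 3.63, 3.58 and 3.92 at 5 ppm, and 3.97, 4.20, 4.39, 4.59 and 4.12 at 10 ppm. It was not called at 5 ppm (-0.01) and rose at 10 ppm (0.59, adjusted p = 0.021 in limma's fit), a call that was lost without control replicate 2 or replicate 4 of 10 ppm. At 20 ppm the difference was 0.45 (adjusted p = 0.087) and at 40 ppm 0.42. Of the condensin genes, Smc2 rose at 10 ppm (0.65) and Ncaph at 40 ppm (0.34), and Ncapg was not called from 5 to 40 ppm. The Smc2 call was lost without control replicate 3 or 5 or replicate 2, 3 or 4 of 10 ppm, and the Ncaph call without control replicate 2, 3 or 4 or replicate 1 or 5 of 40 ppm.

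All 4 cytokinesis genes rose at 10 and at 20 ppm, and 3 at 40 ppm. Ect2 activates RhoA at the division plane. It read 3.62, 3.74, 4.23, 4.27 and 4.08 at 0 ppm, 4.68, 4.37, 4.98, 5.47 and 5.28 at 5 ppm, and 4.84, 5.61, 5.43, 5.86 and 5.85 at 20 ppm. The dosed ranges lay wholly above the controls, and the group means differed by 0.97 at 5 ppm and 1.53 at 20 ppm (adjusted p = 0.0073 and 2.8e-06 in limma's fit). The 5 ppm call was lost without replicate 4 of that dose (adjusted p = 0.054). Cep55, which recruits the abscission machinery, differed by 0.85, 1.07 and 0.69 at 10, 20 and 40 ppm, Anln, the ring scaffold anillin, by 0.95 and 1.16 at 10 and 20 ppm, and Racgap1, the partner of Ect2, by 0.55, 0.70 and 0.63 at 10, 20 and 40 ppm. The 10 ppm call of Racgap1 was lost without control replicate 2, 3 or 5 or replicate 1, 3 or 4 of 10 ppm.

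The 5 ppm calls therefore comprised Pbk, Cdk1, Melk, Top2a and Ect2, of which Pbk, Top2a and Ect2 had no overlap with the controls. Among the members not called there, Cenpk (0.48, adjusted p = 0.068 in limma's fit) and Birc5 (0.71, adjusted p = 0.078) came nearest to the threshold. The brightest control was unusually low on replicate 4 of 5 ppm, where 25 members exceeded it against 1 or 2 on each air control array. Replicate 5 of 5 ppm was the highest of its group for 23 members, and replicate 1 the highest of the control arrays for 24.

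Between neighbouring doses few members were called. From 5 to 10 ppm Top2a rose by a further 0.78 (adjusted p = 0.014 in limma's fit) and Mki67 by 0.60 (adjusted p = 0.039), in a background of 1.50% higher and 3.14% lower. The Top2a call was lost without replicate 2 of 5 ppm, and the Mki67 call without replicate 1, 2, 3 or 4 of 5 ppm or replicate 2, 3, 4 or 5 of 10 ppm. From 10 to 20 ppm limma called no member (background 0.0643% higher and 0.0468% lower), although 7 members had an unadjusted p below 0.05. From 20 to 40 ppm it called no member and 0% of all genes in either direction, and 9 members had an unadjusted p below 0.05. The member median was 0.21 from 10 to 20 ppm and -0.10 from 20 to 40 ppm, and the 4 cytokinesis genes had a median of -0.43 in the last step.

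A dose slope (signal against log2 of ppm + 1), fitted to the 30 arrays from 0 to 40 ppm, was positive and past the threshold for 32 of 45 members and negative for none, where 13.2% of all genes had a rising and 12.9% a falling slope. With the arrays centred on their medians all genes split into 2853 rising and 1482 falling, against 2250 and 2198 here. The steepest were Cdk1 (0.43 log2 per doubling of dose plus 1, SE 0.035), Pbk (0.41), Top2a (0.33), Birc5 (0.32) and Ccna2 (0.29). Slopes of Kif20a (0.09), Kif2c (0.07) and Bub1b (0.07) also passed, the last of these not without replicate 1 of 40 ppm, although these genes were called at no single dose against 0 ppm. The 13 members without a called slope were Bub1, Nek2, Cdc25c, Kif11, Kif23, Kif4, Kif15, Hmmr, Dlgap5, Cenpa, Cenpe, Cenpf and Smc2. Of the 45 members, 10 were not called at any dose against 0 ppm: Kif2c, Bub1b, Kif20a, Kif11, Cenpe, Cenpf, Cdc25c, Hmmr, Kif15 and Kif4. Except for Bub1b, which exceeded the brightest control on 2 arrays, none of these 10 exceeded it on any array.

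At 120 ppm members were called in both directions. Against 0 ppm, 20 members were higher and 1, Nek2, was lower, where 42.9% of all genes were higher and 31.9% lower. The higher share is near that background, and the lower share is under it. The all-gene median also shifted by 0.15. Nonspecific controls and spike-ins were higher on all 5 arrays of this dose, as given above, so the dose and a shift of the whole array cannot be told apart there. Without the arrays whose hepatocyte markers averaged above 6, the count of higher members was 17.

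Cdc20 went highest. It read 7.00, 7.67, 7.84, 7.19 and 7.58 at 120 ppm, against 6.34, 6.14, 6.63, 6.52 and 6.64 at 40 ppm. The ranges did not overlap with those of 40 or 0 ppm. The measured log2 difference was 2.10 from 0 ppm (adjusted p = 3.0e-11 in limma's fit) and 1.00 from 40 ppm (adjusted p = 4.4e-05). No fold is given, since the brightest control averaged 7.16 at 120 ppm, against 6.08 at 0 ppm and 5.97 at 40 ppm. Cdc20 on replicate 1 of 120 ppm also lay below that control (7.32). Kif23, the central spindle motor that was called at no lower dose, read 4.69, 4.43, 4.73, 4.51 and 4.15 against 3.77, 3.67, 3.87, 3.56 and 3.75 at 40 ppm, a difference of 0.78. Ttk (0.39) and Ndc80 (0.32) were also higher than at 40 ppm, while both and Kif23 stayed below the brightest control. The second-brightest control rose as well, from a mean of 4.06 at 40 ppm to 4.76 at 120 ppm. A dimmer Kif23 probe set differed by 0.02 from 40 ppm (adjusted p = 0.84 in limma's fit over all probe sets). Cenpa read 5.82, 6.72, 6.71, 5.69 and 6.69, by 0.65 above 40 ppm, but its arrays at 120 ppm all lay below their own brightest control, so no fold is given.

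In the opposite direction, 17 of the 22 members called between 40 and 120 ppm were lower at 120 ppm. The background was 39.8% higher and 31.1% lower. The lower share of the members is near that background, and the higher share is under it. Nek2 read 4.81, 5.08, 4.82, 5.04 and 5.85 at 120 ppm, against 6.06, 6.69, 6.21, 6.62 and 6.19 at 40 ppm and 6.22, 6.24, 6.03, 6.07 and 6.11 at 0 ppm. Its ranges were apart in both comparisons, with measured differences of -1.23 and -1.01 (adjusted p = 1.2e-07 and 3.3e-06 in limma's fit). A dimmer Nek2 probe set gave -0.75 and -0.47 (adjusted p = 0.0014 and 0.035 in limma's fit over all probe sets). Another, below the second-brightest control on every array, went the other way, by 0.37 and 0.29 (adjusted p = 0.0084 and 0.032). The dimmest gave 0.11 and -0.08 and was not called. Ccna2 fell by 1.08, Melk by 0.95, Top2a by 0.91, Pbk by 0.89 and Spc25 by 0.88 from 40 to 120 ppm, and all 4 cytokinesis genes fell, by 0.61 to 0.84. These directions did not all hold with a control covariate. With the mean nonspecific control as the covariate the difference was 0.67 for Ect2, 0.16 for Cep55, 0.43 for Spc25 and 0.067 for Pbk, and with the poly-A controls 0.55 for Ect2, 0.45 for Anln, 0.055 for Cep55 and 0.13 for Spc25, none of them called.

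Genes called higher at lower doses differed in their calls at 120 ppm, where the dose and a shift of the whole array cannot be told apart. Ccna2, Melk, Spc25 and all 4 cytokinesis genes were not called against 0 ppm any more, with differences of 0.01 for Ccna2, -0.14 for Melk and 0.21 for Ect2, whereas Plk1 (1.02), Cdca3 (1.16), Cdca8 (0.95), Kif22 (0.89) and Cdk1 (1.35) were still higher than at 0 ppm. The call for Cdk1 between 40 and 120 ppm (-0.53) was lost without replicate 1 or 3 of 40 ppm or replicate 1 or 4 of 120 ppm (highest adjusted p = 0.16 in limma's fit). With the mean nonspecific control of each array as a covariate, 9 members were higher at 120 ppm than at 0 ppm, among them Cdc20 (1.92), Cdk1 (1.88), Pbk (1.81), Cdca8 (1.67) and Kif22 (1.47), and no call between 40 and 120 ppm was left. The same covariate left all calls from 5 to 40 ppm in place.

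**Figure D5:**
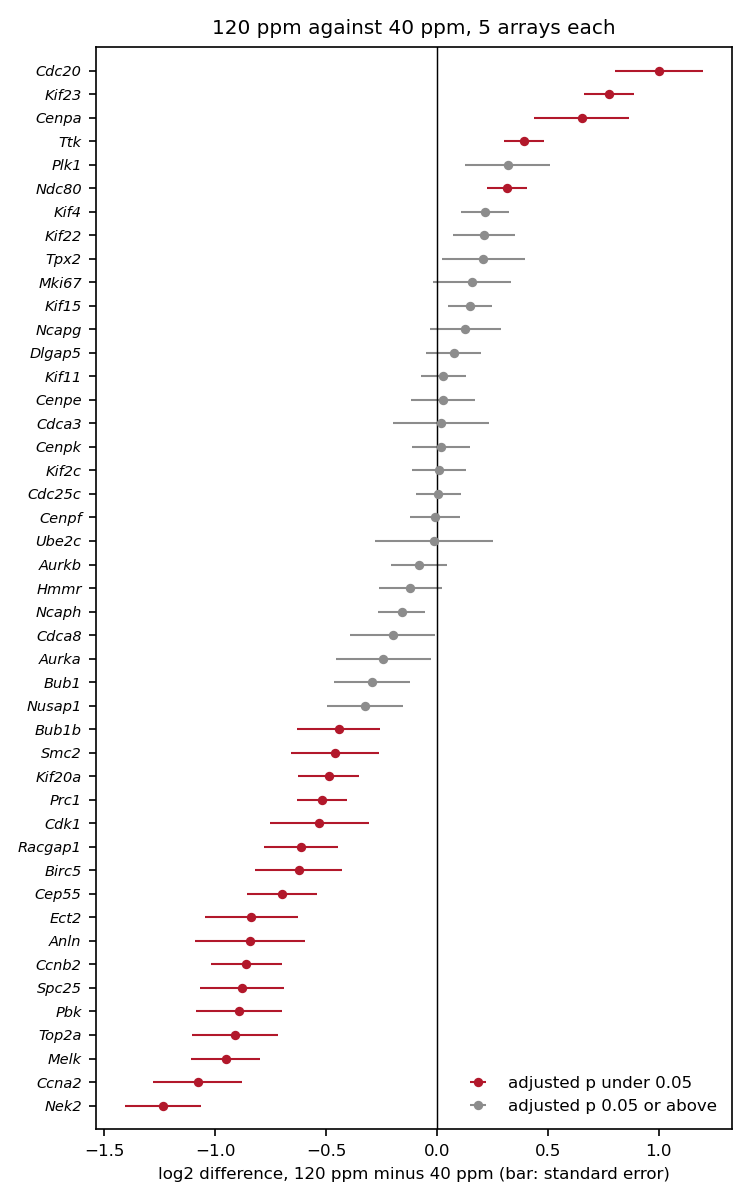
log2 difference between 120 and 40 ppm (x axis; point, with limma's standard error as a bar) for each of the 45 genes (y axis, sorted), 5 arrays per dose, in red where the adjusted p was under 0.05. At the top Cdc20, Kif23 and Cenpa are higher by 1.00, 0.78 and 0.65, and at the bottom Nek2 and Ccna2 are lower by 1.23 and 1.08.

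Other probe sets of the same genes gave a second reading for 24 members. Of these 34 unused, dimmer probe sets, 6 were higher at 10 ppm, 7 at 20 ppm and 6 at 40 ppm, and none was lower at these doses. At 120 ppm 15 were higher and 1 was lower. These calls came from a fit over all probe sets. In the fit over genes, 5.17%, 6.45%, 7.69% and 42.9% of all genes were higher at 10, 20, 40 and 120 ppm. At 120 ppm 31.9% of all genes were lower. At 20 ppm the second probe sets of Aurkb (1.32), Ccna2 (1.50), Cdca8 (0.85), Racgap1 (0.82), Prc1 (0.53), Kif22 (0.40) and Top2a (0.52) were higher, as the first ones were. Those of Bub1, Nusap1, Tpx2, Cenpk and Anln were not, with differences of 0.09, -0.15, 0.12, 0.055 and 0.04. They averaged 2.78 to 3.67, and each exceeded the second-brightest control on at most 1 array.

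Neighbouring steps of the cell cycle were read from lists that share no gene with the 45. DNA replication genes, which copy the genome before mitosis, rose in 13 of 28 at 5 ppm, in 25 at 10 ppm, in 24 at 20 ppm and in 19 at 40 ppm, with medians of 0.52, 0.86, 0.90 and 0.73. At 20 ppm Uhrf1, which carries DNA methylation through replication, was at least 2.09-fold higher, the thymidine kinase gene Tk1 at least 1.47-fold and the helicase gene Mcm5 at least 1.56-fold. Other mitotic genes outside the set rose in 1 of 58, 12, 20 and 13 at the same doses, with 1 lower at 20 ppm. Of all genes, 1.13%, 5.17%, 6.45% and 7.69% rose at these doses. Among these Cks1b, a bright gene whose product binds cyclin-dependent kinases, was 2.00-fold higher at 20 ppm (log2 difference 1.00, adjusted p = 1.2e-07 in limma's fit), and Cdca5, which holds sister chromatids together, was at least 1.09-fold higher (1.64).

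Regulators upstream of the group were called in both directions. Of 13 cyclins, kinases and E2F genes of G1 and S phase, 6 rose at 10 ppm, where 5.17% of all genes rose, and 3 rose and 1 fell at 20 ppm, against 6.45% and 6.74%: the repressor E2f8 differed by 0.80 and 0.78, the bright Ccnd1, cyclin D1, was higher by 0.45 and 0.40, and E2f2 was lower by 0.39 at 20 ppm. Of 13 B-MYB, FOXM1 and DREAM genes, 1 rose and 1 fell at 10 ppm, 1 rose and 2 fell at 20 ppm and 2 moved each way at 40 ppm. Of all genes, 5.17% rose and 6.62% fell at 10 ppm, 6.45% and 6.74% at 20 ppm, and 7.69% and 5.04% at 40 ppm. A single call in 13 is near these shares. Rbl1, the p107 subunit of DREAM, was at least 1.78-fold higher at 10 ppm, Tfdp2 and Lin52 were 1.51-fold and 1.47-fold lower at 20 ppm, and the dim Mybl2 (0.35) and Foxm1 (0.50), which encode B-MYB and FOXM1, rose at 40 ppm.

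Of 12 inhibitors of cyclin-dependent kinases and growth arrest genes, 3 fell at 10 and at 20 ppm, where 6.62% and 6.74% of all genes fell. Cdkn1b, the p27 inhibitor, was 1.43-fold lower at 20 ppm, the antiproliferative gene Btg2 1.50-fold and Ccng2, a cyclin of quiescent cells, 2.01-fold, while Cdkn2b, the p15 inhibitor, was 1.24-fold higher. Core subunits of the anaphase-promoting complex did not follow Cdc20 and Ube2c in number. Of 13, 1 rose and 2 fell at 20 ppm, where 6.45% of all genes rose and 6.74% fell. Anapc15 was at least 1.40-fold higher and Anapc13 1.25-fold lower. Of 8 cohesin subunits and loaders none rose in limma's fit, and Nipbl and Stag2 were both 1.52-fold lower at 20 ppm.

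Markers of the cell types in lung gave the following values beside these rises. Of all genes, 1.13%, 5.17%, 6.45% and 7.69% rose at 5, 10, 20 and 40 ppm, and 0.0234%, 6.62%, 6.74% and 5.04% fell. No T cell, B cell, natural killer cell or thymocyte marker passed limma's test at 5, 10 or 20 ppm, over 5, 4, 4 and 6 measured genes, and 1 of these genes, a T cell marker at 20 ppm, had an unadjusted p below 0.05. Of the 5 T cell markers, 1, 3 and 5 never exceeded the brightest control at 5, 10 and 20 ppm. The same held for 3 of 4 natural killer cell markers at each dose. A change in markers this dim could be missed. The thymocyte markers averaged 3.59 to 3.93 on every array, and all 6 lay below the brightest control on every array except for Cd8b1 on 1 array of 5 ppm. Of 7 neutrophil markers, none rose from 5 to 40 ppm and 1 fell at 10 ppm, and of 4 monocyte markers 1 rose and 1 fell at 10 ppm. Of 5 erythroid precursor markers, 1 rose and 2 fell at 20 ppm. Club cell markers fell in 2 of 3 at 10 and 20 ppm and in 3 of 3 at 40 ppm, with the list mean at 13.4 to 13.5 on control arrays and 12.9 to 13.2 at 20 ppm. The endothelial list mean was 9.85 to 10.1 on control arrays, 9.56 to 9.66 at 20 ppm and 9.59 to 9.78 at 40 ppm, with 3 of 5 markers lower at 20 ppm and 1 at 40 ppm. The alveolar macrophage mean was 7.95 to 8.14 on control arrays, 7.52 to 7.83 at 10 ppm and 7.69 to 7.93 at 20 ppm, and of its 4 markers 1 rose and 2 fell at each of these doses. Neither list overlapped the controls at the doses given. Whether any of these shifts bears on the mitosis genes was not tested.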

How the data were processed

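Whole lung RNA was measured on 35 Affymetrix arrays, each with 45141 probe sets, 104 of them controls. The deposited values are log2 signals that the authors made with RMA in Partek, per the submitters' processing notes; versions and scan dates were not given in the sources used here, and the number of arrays limits the precision. Groups came from the labelled dose, and no array was left out. Of the probe sets, 28898 had 1 gene in the platform annotation, 551 had several and 15588 were not listed; the brightest single-gene probe set stood for each of 17097 genes.

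Group means of all 7 doses were fitted together with limma 3.58.1 (R 4.3.3), with 10 comparisons between doses and a slope over 30 arrays, with Benjamini-Hochberg adjustment across every gene tested (threshold 0.05). A dim array under its brightest nonspecific control was raised to it before a fold was taken, so such folds are lower bounds; none is given where the bound was under 1. The fit was tested on simulated data. Members given array by array were those called in the most comparisons within each role, and from each other list those with the smallest p. Members and lists were chosen with earlier results of these data known. Alternatives changed the probe set choice, filter, floor, scaling, weights, covariates, block and arrays.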

Additional observations from a re-analysis of the deposited data

Results flagged for a closer look

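Of 315 groups of 5 arrays (45 members at 7 doses), 19 held an array set far from the other 4, over 18 genes. About 15.75 would be set apart if 1 in 20 groups were. Replicates 4 and 5 of 120 ppm accounted for 3 values each, and replicate 1 of 0 ppm and replicate 2 of 120 ppm for 2 each.

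Among air controls, Bub1b read 5.66 on replicate 1 (others 5.12 to 5.27), Cenpa 6.68 on replicate 1 (others 5.33 to 5.56) and Kif15 4.29 on replicate 4 (others 4.45 to 4.51). At 1 ppm, Kif4 read 3.55 on replicate 2 (others 3.74 to 3.80) and Dlgap5 4.88 on replicate 4 (others 4.70 to 4.74). At 5 ppm, Cdca3 read 4.98 on replicate 3 (others 5.65 to 5.77) and Mki67 3.92 on replicate 5 (others 3.53 to 3.63).

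At 10 ppm, Cdca8 read 4.66 on replicate 2 (others 5.11 to 5.23) and Ncaph 6.28 on replicate 1 (others 5.85 to 5.96). At 20 ppm, Racgap1 read 5.83 on replicate 5 (others 4.98 to 5.16). At 40 ppm, Ndc80 read 4.15 on replicate 5 (others 3.91 to 3.98).

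At 120 ppm, replicate 4 stood apart for Kif20a at 4.35 (others 3.63 to 3.73), Kif22 at 4.54 (others 5.29 to 5.48) and Nusap1 at 3.97 (others 4.12 to 4.17). Replicate 5 stood apart for Nek2 at 5.85 (others 4.81 to 5.08), Kif4 at 4.46 (others 3.64 to 3.86) and Spc25 at 4.30 (others 3.52 to 3.70). Replicate 2 stood apart for Top2a at 5.14 (others 4.25 to 4.45) and Anln at 5.68 (others 4.29 to 4.64).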

How the results depend on the processing

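The 151 calls of members were recomputed under the alternatives. Leaving out 1 array at a time gave 2150 values, of which 2050 kept direction and call, 100 lost the call and none turned; among 2395 values under the other settings, 2227 kept both, 153 lost the call and 15 turned. Without 1 array, the count of members higher than 0 ppm ran from 0 to 0 at 1 ppm, 3 to 7 at 5 ppm (3 without replicate 4 of 5 ppm), 17 to 23 at 10 ppm, 22 to 27 at 20 ppm, 18 to 23 at 40 ppm and 18 to 22 at 120 ppm. Members lower at 120 ppm numbered 1 to 2, rising slopes 31 to 33, members higher at 10 than 5 ppm 0 to 4 (0 without replicate 2 of 5 ppm), and at 120 against 40 ppm 5 to 8 were higher (8 without replicate 4 of 120 ppm) and 14 to 17 lower.

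A filter on genes above every nonspecific control on at least 5 arrays kept 15 members, several of them only through the doses where they were high, so its counts are no support for the rises. Under it 3, 10, 11, 11 and 8 members were higher at 5, 10, 20, 40 and 120 ppm, 13 slopes rose, 1 member was higher at 10 than 5 ppm, and 2 were higher and 9 lower at 120 than 40 ppm. The count for 10 against 5 ppm was 1 with all probe sets, repeated quantile normalisation, a common floor, without the arrays numbered 15 or without the hepatocyte-marker arrays, 4 with mean probe sets or array weights, and 0 with a poly-A covariate. At 5 ppm it was 8 with array weights and 3 without the hepatocyte-marker arrays, which left 14 at 10 ppm. At 120 ppm 2 members were lower than at 0 ppm with repeated quantile normalisation or only the groups compared, and 9 were higher than at 40 ppm with the former. The nonspecific-control covariate left 9 higher and 0 lower at 120 ppm against 0 ppm and 0 and 0 against 40 ppm; the poly-A covariate left 9 and 0, and 0 and 2. A slope that included 120 ppm fell for 1 member. The common floor, the filter on the second-brightest control, the poly-A covariate and the hepatocyte-marker exclusion were chosen after the data were seen.

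Turned values were as follows, and the cause was not tested. Beside the turned calls counted above, the list holds results that were not called in the main fit. These are Smc2, Spc25 and Nusap1 at 120 against 0 ppm, Ncaph at 120 against 40 ppm, and the slopes of Nek2 and Kif23. With mean probe sets Smc2 was 0.31 at 120 against 0 ppm and 0.12 against 40 ppm. With the nonspecific covariate Tpx2 was -0.24, Spc25 1.09 and Ncapg -0.59 against 0 ppm, and Pbk 0.067, Spc25 0.43, Smc2 0.80, Ect2 0.67 and Cep55 0.16 against 40 ppm. With the poly-A covariate Nusap1 was 0.98, Tpx2 -0.62 and Ncapg -0.30 against 0 ppm, and Prc1 0.037, Spc25 0.13, Anln 0.45, Ect2 0.55 and Cep55 0.055 against 40 ppm. Ncaph was 0.30 against 40 ppm after repeated quantile normalisation, and with 120 ppm in the slope Nek2 was -0.085 and Kif23 0.072.

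Whether the replicate numbers pair the samples is not settled. Of 105 same-number pairs of arrays from different groups, 53 had a correlation of deviations above 0.1. The median was 0.106 and the range -0.508 to 0.639. Arrays with different numbers were not compared, so these values cannot decide it. With the replicate number as a block, 6, 22, 25, 22 and 21 members were higher at 5, 10, 20, 40 and 120 ppm.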
